A study of Mus musculus with 24 samples.

Results

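Kat2a lies in a gene-dense stretch of mouse chromosome 11, and the 8 genes described here are among its annotated neighbours: Dnajc7, Nkiras2, Dhx58, Rab5c, Ghdc, Stat5b, Stat5a and Stat3. They were taken by symbol from the differential expression tables that the authors deposited, where all 8 are listed, and they are 8 of 38355 genes in the count tables, of which 27576 had a read in at least 1 library. The symbols were chosen as neighbours of Kat2a, with earlier results of these data known. Other genes of the same stretch, such as Kcnh4 and Cnp, are not among the 8. RNA was sequenced from the hippocampal CA1 subfield, dissected from C57BL/6J animals that were 3 to 5 months old. The 6 control naive and 5 control novelty libraries came from Kat2afl/fl mice, in which both copies of Kat2a are floxed and intact. The 6 cKO naive and 7 cKO novelty libraries came from Kat2afl/fl ; CamKII_alpha-cre+ mice, which carry the same floxed alleles plus a Cre recombinase driven by the CamKII alpha promoter. That promoter is active in excitatory forebrain neurons, so cells in which it is silent, such as glia, keep an intact Kat2a. Novelty libraries came from mice exposed to novelty for 15 min, and naive mice had no exposure. Every animal carries floxed alleles, so an effect of the inserted loxP sites on the neighbours was not tested. The labels do not say whether libraries came from separate animals, so p-values measure the spread between these libraries.

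The neighbours belong to several unrelated pathways. Stat3, Stat5a and Stat5b are latent transcription factors that Janus kinases phosphorylate below cytokine and hormone receptors, after which they dimerise, enter the nucleus and bind GAS elements. In brain Stat3 is best known in astrocytes, where it carries signals of the interleukin-6 family, and Stat5a and Stat5b carry those of growth hormone and prolactin. Rab5c is a small GTPase of early endosomes, Dnajc7 is a J-domain co-chaperone of HSP70 and HSP90, Nkiras2 is a Ras-like GTPase that restrains NF-kappa-B, Dhx58 encodes LGP2, a cytosolic sensor of viral RNA, and Ghdc encodes a protein with a GH3 domain. Kat2a itself encodes a histone acetyltransferase that works within the SAGA and ATAC complexes.

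In the GRCm38 assembly the stretch from the first to the last of these genes covers 356.7 kb and holds 16 annotated genes, 14 of them protein-coding. Dnajc7 (ENSMUSG00000014195) lies at chr11:100582818-100620168 on the minus strand. Nkiras2 (ENSMUSG00000017837) lies at chr11:100619244-100627607 on the plus strand. Dhx58 (ENSMUSG00000017830) lies at chr11:100694884-100704271 on the minus strand and ends the left side. Kat2a (ENSMUSG00000020918) follows at chr11:100704746-100712465 on the minus strand. To its right, Rab5c (ENSMUSG00000019173) lies at chr11:100715009-100738215, Ghdc (ENSMUSG00000017747) at chr11:100766032-100770957 and Stat5b (ENSMUSG00000020919) at chr11:100780731-100850724, all 3 on the minus strand. Stat5a (ENSMUSG00000004043) lies at chr11:100859351-100885169 on the plus strand, and Stat3 (ENSMUSG00000004040) at chr11:100885098-100939540 on the minus strand. Of the 8, the closest on either side are Dhx58, whose start is separated from the 3′ end of Kat2a by 474 bases, and Rab5c, whose 3′ end lies 2543 bases from the start of Kat2a, with the small gene Hspb9 (chr11:100713850-100714575) between them.

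Some of these genes share sequence with one another, which bears on their counts. Dnajc7 and Nkiras2 overlap by 925 bases on opposite strands, 287 of them exonic in both. The 3′ ends of Stat5a and Stat3 overlap by 72 exonic bases, and Dnajc7 shares 154 exonic bases with Cnp on its other side. Dhx58 shares 141 exonic bases with the antisense gene Dhx58os, which had 23 reads in all 24 libraries together. The TruSeq kit used does not mark the strand, so reads from these shared bases cannot be assigned to one strand. Stat5a and Stat5b are also near-identical copies over part of their coding sequence. Of their coding 50-base words, 608 are shared, which is 26.0% of those of Stat5a and 26.3% of those of Stat5b. The longest identical run is 324 bases and begins at coding base 571 of both genes, counted from the start codon. Its first 120 bases are printed 5′ to 3′ in lower case because a read that falls wholly inside the run has no unique position, and such reads are left out of the counts of both genes.

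Stat5a and Stat5b, start of the shared coding run: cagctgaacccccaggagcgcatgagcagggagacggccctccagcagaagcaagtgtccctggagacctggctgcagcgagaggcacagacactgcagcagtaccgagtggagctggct

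Control naive libraries held 10700954 to 23374924 reads assigned to genes, control novelty libraries 13876546 to 35754503, cKO naive libraries 19619226 to 24543117 and cKO novelty libraries 13020484 to 21183762. The CA1 label could be checked against 9 markers of CA1 pyramidal neurons, such as Wfs1 and Fibcd1. All 9 had reads, and their summed level was 6272 to 6813 CPM in control naive and 6241 to 7806 in control novelty libraries. In cKO mice it was 5191 to 6583 CPM without exposure and 5386 to 6230 after novelty. CPM are the reads of a gene per 1000000 assigned reads, after TMM adjustment of the library sizes. The TMM factors ran from 0.972 to 0.997 in control and from 0.997 to 1.027 in cKO libraries, so genotype estimates depend on this adjustment. In the genotype average 3 of the 9 fell, where 6.32% of all tested genes did. Markers of dentate granule neurons, which lie next to CA1, varied over libraries within each group. Their 5 genes, Prox1 among them, summed to 145.1 to 278.3 CPM in control naive, 147.3 to 326.3 in control novelty, 126.4 to 274.3 in cKO naive and 96.9 to 214.1 in cKO novelty libraries. None of the 5 was at 0, and 2 of them fell in the genotype average. Their correlations with the neighbours over the 24 libraries are taken up under other observations. Their part in the genotype and novelty comparisons of the neighbours was not tested. In this bulk tissue, fewer cells of a type and less RNA per cell cannot be told apart.

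The libraries of the 2 genotypes did not overlap for Kat2a, and the cKO ones were lower. In control naive libraries it ranged from 59.3 to 70.3 CPM with a median of 62.7, and in cKO naive libraries from 32.5 to 39.3 with a median of 36.3. In the 5 control novelty libraries it was at 63.3, 57.5, 60.2, 64.2 and 56.0 CPM, against 31.2 to 38.3 CPM with a median of 35.0 in cKO novelty libraries. The log2 fold change, cKO minus control, was −0.81 (SE 0.05) in naive mice, with an adjusted p of 2.7e-06 from the edgeR quasi-likelihood test, and −0.77 (SE 0.05, adjusted p = 6.4e-07) after novelty. Reads remained at 57.0% and 58.5% of the control level in the 2 comparisons. These counts are over the whole gene, and which exons Cre removes was not used here.

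The 8 neighbours spanned more than 2 orders of magnitude in level. Divided by exon length, so that genes can be compared, Rab5c was highest at 63.5 ± 3.84 CPM per kb of exon (SD, n = 24), followed by the co-chaperone gene Dnajc7 at 34.3 ± 1.12. Stat3 stood at 5.90 ± 0.44, Stat5b at 3.80 ± 0.41, Nkiras2 at 2.61 ± 0.21 and Ghdc at 2.53 ± 0.23 CPM per kb. The sensor gene Dhx58 was at 0.321 ± 0.068 and Stat5a at 0.175 ± 0.050 CPM per kb. This order held in 3 of the 4 groups, and in control naive libraries Ghdc and Nkiras2 changed places. Nkiras2 and Ghdc overlapped in every group, and Dhx58 and Stat5a overlapped in both novelty groups. The other neighbours in this order did not overlap within any group. Kat2a itself ranked between Dnajc7 and Stat3 in all 4 groups, at 18.3 ± 1.14 CPM per kb in control naive (n = 6) and 10.4 ± 0.70 in cKO naive libraries (n = 6). Stat5a and Dhx58 thus rest on few reads, 596 and 496 in all 24 libraries together, against 78596 for Dnajc7.

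**Figure D1:**
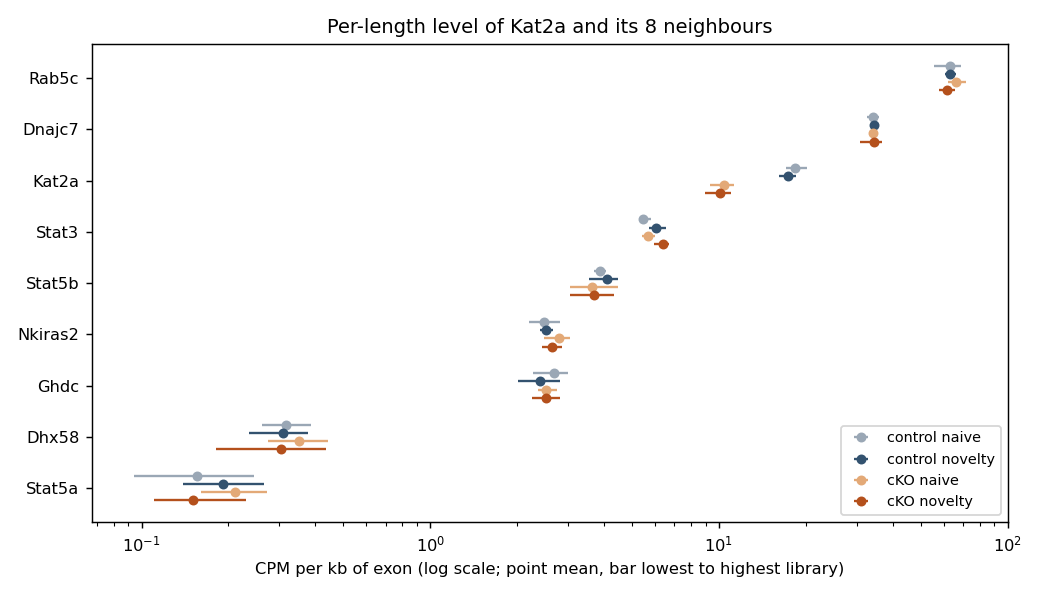
Mean level of Kat2a and its 8 neighbours in CPM per kb of exon on a log axis. Points are group means of 5 to 7 libraries and bars run from the lowest to the highest library; Rab5c is at the top, and Dhx58 and Stat5a are at the bottom with bars that overlap in the novelty groups.

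The first question for these genes is whether removal of Kat2a moved them too. No neighbour passed the test in any genotype comparison, while 0.801% of 16360 tested genes passed in naive mice, 4.53% of 16188 after novelty and 12% of 16744 when genotype was averaged over the exposures. A gene passed when its Benjamini-Hochberg adjusted p, over all genes tested, was below 0.05. All 8 neighbours cleared the filter on low counts in all fits. Against these backgrounds a count of 0 among 8 genes does not set the neighbours apart. The median log2 fold change of the 8 was 0.07 in naive mice and −0.0042 after novelty, and over all tested genes it was 0.00 and 0.01. Their median absolute change was 0.10 and 0.08, beside 0.08 and 0.09 over all genes. Control and cKO libraries overlapped for all 8 neighbours in both comparisons, whereas 1.91% and 3.14% of all tested genes had no overlap.

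**Figure D2:**
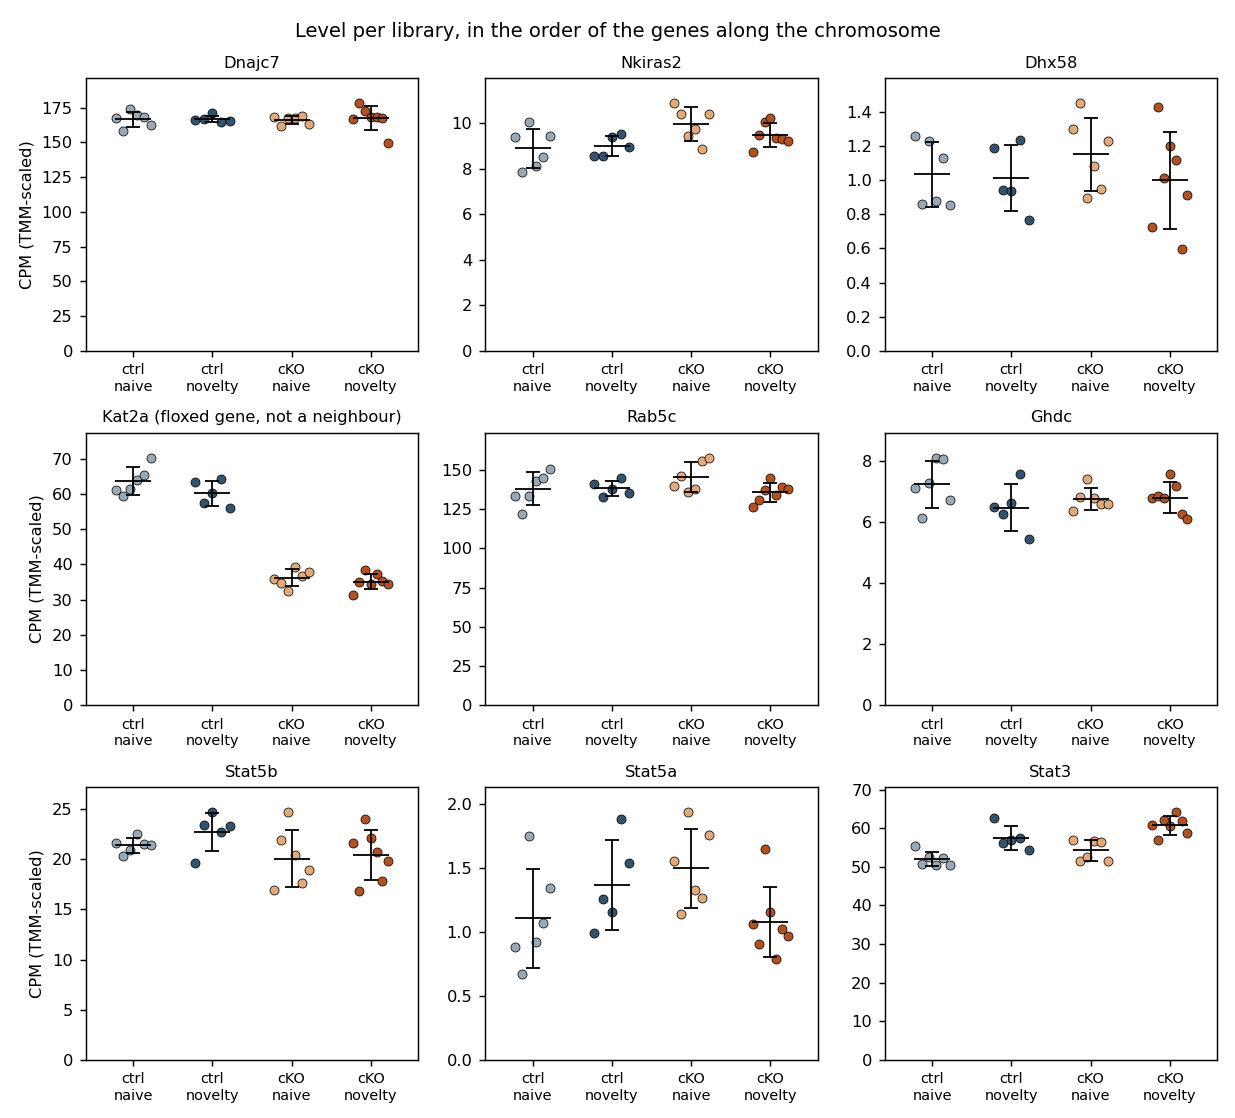
CPM of each gene in each library, 1 panel per gene in chromosomal order, with the y axis from 0. Points are libraries, long bars are group means and whiskers are SD; Kat2a splits by genotype, and the 8 neighbours have overlapping groups.

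Of the 8 neighbours, Rab5c and Dhx58 lie nearest to Kat2a on either side, and neither passed. Rab5c had a median of 138.5 CPM in control naive libraries (121.7 to 150.9) and of 142.9 in cKO naive libraries (136.2 to 157.9). After novelty the control libraries were at 141.1, 132.8, 137.8, 145.1 and 135.4 CPM, and the cKO libraries ranged from 126.5 to 144.7 with a median of 137. All 4 ranges share values. Averaged over the exposures, the level of Rab5c in cKO libraries was 101.7% of that in control libraries, with a 95% interval of 96.9 to 106.7%. Dhx58 lay between 0.853 and 1.26 CPM in control naive and between 0.894 and 1.45 in cKO naive libraries. Its average level in cKO libraries was 104.6% of control, and with so few reads the interval ran from 86.1 to 127%. The counts of Dhx58 do not tell apart genotype effects within that interval, and the smallest detectable effect was not computed.

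Over all 24 libraries Dnajc7 had the smallest coefficient of variation of the 8, at 3.26%. Its libraries ranged from 158.4 to 173.8 CPM in control naive and from 161.5 to 168.8 in cKO naive mice. After novelty the control libraries were at 166.4, 166.8, 171.0, 164.5 and 165.4 CPM. The cKO novelty libraries ranged more widely, from 149.8 to 178.2, a coefficient of variation of 5.2% beside 3.91% for Stat3 and 4.32% for Rab5c in that group. The low end was library 7 alone, and the next value was 167.1 CPM. All 4 groups overlapped. The genotype average of Dnajc7 was 99.94% of control with an interval of 96.5 to 103.5%. Ghdc was at 98.8% of control, with an interval of 91.1 to 107.3%. These intervals do not cover the choice of scaling. Without TMM adjustment the mean CPM of Dnajc7 in cKO libraries was 102.2% of control in naive mice and 103.6% after novelty.

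Nkiras2, Stat5b and Stat3 had unadjusted p-values below 0.05 in the genotype average and did not pass after adjustment, where 26.6% of all tested genes had such unadjusted values. Nkiras2 ranged from 7.84 to 10.03 CPM (median 8.95) in control naive and from 8.88 to 10.9 (median 10.1) in cKO naive libraries. After novelty the control libraries were at 8.56, 8.56, 9.38, 9.51 and 8.93 CPM and the cKO libraries between 8.73 and 10.2 (median 9.35). The cKO values were placed higher in both exposures, and the groups overlapped. The genotype average was 0.12 (SE 0.05, edgeR adjusted p = 0.106), or 108.7% of control. The shared exon bases with Dnajc7 make up 8.02% of the exon length of Nkiras2.

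Stat5b had estimates of the opposite sign. It lay between 20.4 and 22.5 CPM (median 21.5) in control naive and between 16.9 and 24.7 (median 19.7) in cKO naive libraries. After novelty the control libraries were at 19.6, 23.4, 24.7, 22.7 and 23.4 CPM, and the cKO libraries between 16.8 and 23.99 (median 20.7). The cKO libraries were spread more widely than the control naive ones, with an SD of 2.89 CPM in cKO naive (n = 6) against 0.73 in control naive (n = 6). Over the 24 libraries Stat5b correlated with the dentate granule markers at Pearson r = −0.43 (permutation p = 0.0347, adjusted p = 0.407). With group means removed it was −0.73. The cKO naive libraries lowest in Stat5b, 1 and 5 at 16.92 and 17.67 CPM, had the highest Prox1 of that group, at 92.87 and 97.55 CPM. Pearson r of larger size was found for Stat5b with microglia (−0.53), CA3 and CA2 (−0.52) and oligodendrocyte markers (0.48). With group means removed these were −0.47, −0.49 and 0.40, and none passed after adjustment. In the genotype average 2 of 5 dentate and 5 of 7 oligodendrocyte markers fell, where 6.32% of all tested genes did. Of 7 microglial and 6 CA3 and CA2 markers 0 fell. The part of dentate tissue or of these cell types in the spread and in the genotype estimate of Stat5b was not tested. The genotype average was −0.12 (SE 0.06, edgeR adjusted p = 0.178), or 91.7% of control. Stat3 was at 105.0% of control, with a genotype average of 0.07 (SE 0.03, edgeR adjusted p = 0.114).

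Stat5a had the largest estimates of the 8 in both pairwise genotype comparisons, in opposite directions. In control naive libraries it ranged from 0.669 to 1.75 CPM (median 0.995) and in cKO naive libraries from 1.14 to 1.94 (median 1.44), a log2 difference of 0.39 (SE 0.22, edgeR adjusted p = 0.458). After novelty the control libraries were at 0.989, 1.26, 1.16, 1.89 and 1.54 CPM and the cKO libraries between 0.790 and 1.65 (median 1.03), a difference of −0.31 (SE 0.21, adjusted p = 0.408). The groups overlapped in both. Averaged over the exposures the level was 102.6% of control, with an interval from 82.9 to 127.2%.

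**Figure D3:**
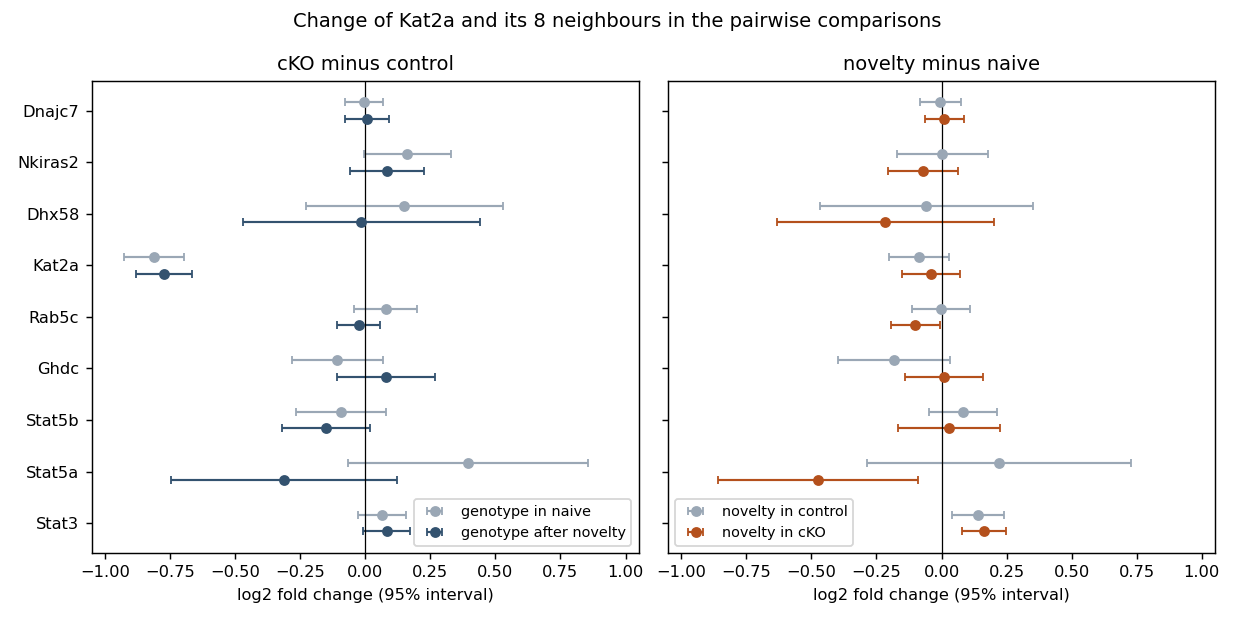
Log2 fold change of Kat2a and its 8 neighbours with 95% intervals, in the 2 genotype comparisons (cKO minus control) and the 2 novelty comparisons (novelty minus naive). Kat2a is far below 0 in the genotype panel, Stat3 is above 0 in both novelty comparisons, and the intervals of Dhx58 and Stat5a are the widest.

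The other comparison of the design asks what 15 min of novelty changed. Among the neighbours Stat3 alone passed, and it rose. In control naive libraries it ranged from 50.5 to 55.3 CPM with a median of 51.5, and in the 5 control novelty libraries it was at 62.5, 56.2, 56.9, 57.6 and 54.3. In cKO naive libraries it ranged from 51.4 to 57.1 with a median of 54.5, and in cKO novelty libraries from 56.8 to 64.2 with a median of 60.7. Novelty libraries were the higher ones in both genotypes, with some overlap: the lowest control novelty library lies below the highest control naive library, and the lowest cKO novelty library lies below the highest cKO naive library. Libraries without overlap between naive and novelty were found for 2.4% of all tested genes in control and 1.98% in cKO mice, and for none of the 8 neighbours.

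In cKO mice Stat3 went from 54.3 ± 2.78 (SD, n = 6) to 60.7 ± 2.38 CPM (n = 7), a two-sided exact permutation p of 0.00175 over 1716 arrangements. The log2 fold change was 0.16 (SE 0.04), with an edgeR adjusted p of 0.0385, in a comparison where 2.41% of 16339 genes passed and 1.92% rose. In control mice it went from 52.0 ± 1.87 (n = 6) to 57.5 ± 3.06 (n = 5), with a two-sided exact permutation p of 0.00649 over 462 arrangements. The log2 fold change there was 0.14 (SE 0.05) and did not pass, with an edgeR adjusted p of 0.206 where 1.22% of 16100 genes passed. These 2 exact tests are among 32 made, over 8 neighbours and 4 comparisons. Averaged over the genotypes, Stat3 rose by 0.15 (SE 0.03, edgeR adjusted p = 0.000916), to 111.3% of the naive level with an interval of 106.8 to 116%. In that average 6.55% of 16744 genes passed and 4.43% rose. The difference between the novelty effects of the 2 genotypes was 0.02 (SE 0.06, edgeR adjusted p = 1), with an interval from −0.10 to 0.14. For that difference 0 genes passed with edgeR, DESeq2 or limma-voom, a background of 0%, while 688, 651 and 760 had an unadjusted p below 0.05 with these 3 tools.

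The call in cKO mice was close to its limit. It was lost with upper-quartile scaling (adjusted p = 0.0761), without a filter on low counts (0.0781), and in 9 of 13 fits that left out 1 library. Those were the fits without cKO naive 2, 3 or 6 or without cKO novelty 1, 3, 4, 5, 6 or 7. In them the adjusted p was at most 0.112 and the log2 fold change 0.15 to 0.17. A further setting that lost the call is given below with the dependence on the processing. The novelty average passed in all 24 fits that left out 1 library, with adjusted p-values up to 0.0026. In the authors' deposited table, made with DESeq2, Stat3 had an adjusted p of 0.0042 in cKO and 0.057 in control mice.

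Astrocyte markers did not pass with novelty. The 7 astrocyte markers, Gfap, Aqp4 and Slc1a3 among them, had a summed level of 4788 to 6310 CPM in control naive, 5384 to 5677 in control novelty, 5117 to 5354 in cKO naive and 4529 to 5654 in cKO novelty libraries. None of the 7 was at 0, and 0 of 7 passed in either direction in the novelty comparisons. Of all tested genes 1.22% passed in control mice, 2.41% in cKO mice and 6.55% in the novelty average. Against these shares a count of 0 among 7 does not set the astrocyte markers apart. Of 7 microglial markers 1 rose and 1 fell in the novelty average, where 4.43% of all tested genes rose and 2.13% fell. The summed levels of these 7 were 312 to 361 CPM in control naive, 310 to 348 in control novelty, 316 to 378 in cKO naive and 310 to 361 in cKO novelty libraries.

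Because Stat3 was the neighbour that moved, the 250 bases before its start are printed here from RefSeq (GRCm38.p6, chr11:100939541-100939790, minus strand), 5′ to 3′ in the direction of the gene. Capitals mark the 1 match among 6 motifs searched on both strands, a CCAAT box on the reverse strand (ATTGG) that begins 79 bases before the start.

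Stat3 upstream: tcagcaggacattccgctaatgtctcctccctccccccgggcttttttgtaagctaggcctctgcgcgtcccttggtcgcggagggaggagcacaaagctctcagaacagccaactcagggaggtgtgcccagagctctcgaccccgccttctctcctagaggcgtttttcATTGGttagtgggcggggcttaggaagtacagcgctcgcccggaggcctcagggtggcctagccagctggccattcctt

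A CCAAT box (CCAAT or ATTGG) occurs in 33.8% of 32851 promoter windows of this length, so 1 match is common. The window holds no core of the cAMP response element (TGACG, in 17.8% of all windows), no GAS element (TTCNNNGAA, 7.02%), no EGR site (GCGNGGGCG, 4.7%), no AP-1 site (TGANTCA, 6.75%) and no CArG box (1.47%). The window is 60.8% G and C, against a median of 52.4% over all windows. Windows were listed for 7 of the 8 neighbours, Dhx58 being the missing one. A TGACG core was found before Rab5c and before Nkiras2, and neither of these genes passed for novelty.

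Rab5c and Stat5a had unadjusted p-values below 0.05 for novelty in cKO mice, where 13.9% of all genes had one, and did not pass. Rab5c went from 145.6 ± 9.35 (SD, n = 6) to 135.7 ± 5.86 CPM (n = 7), a change of −0.10 on the log2 scale (SE 0.04, edgeR adjusted p = 0.314). Its control means were 138.0 and 138.5 CPM. Stat5a went from 1.497 ± 0.31 (n = 6) to 1.08 ± 0.28 CPM (n = 7), a change of −0.48 on the log2 scale (SE 0.18, edgeR adjusted p = 0.225). In control mice the change of Stat5a was 0.22 (SE 0.24, edgeR adjusted p = 0.849). The difference between the genotypes was −0.71 (SE 0.30), the largest of the 8, with an unadjusted edgeR p of 0.0257 and an adjusted p of 1.

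The other 5 neighbours did not pass for novelty in any comparison. Averaged over the genotypes, Dnajc7 was at 100.4% of naive with an interval of 96.95 to 103.9%, Nkiras2 at 97.8% (91.3 to 104.8%), Ghdc at 94.4% (87.0 to 102.5%) and Stat5b at 104.1% (95.6 to 113.3%). Dhx58 was at 91.1%, with an interval from 75.0 to 110.6%. The 8 neighbours had a median novelty average of −0.04, and all tested genes one of −0.01.

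A wider look placed the 8 among the genes around them. Within 1 Mb of the Kat2a start, Kat2a left out, 59 genes were tested in the fit over all libraries. Of these 7 passed for the genotype average (4 higher, 3 lower), which is 11.9% beside 12% of all genes, and 6 passed for the novelty average (4 higher, 2 lower), which is 10.2% beside 6.55%. In the pairwise comparisons 0 of 56 passed for genotype in naive mice, 1 of 56 after novelty, 2 of 56 for novelty in control and 4 of 57 for novelty in cKO mice. Stat3 is among the 4 and among the 6.

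**Figure D4:**
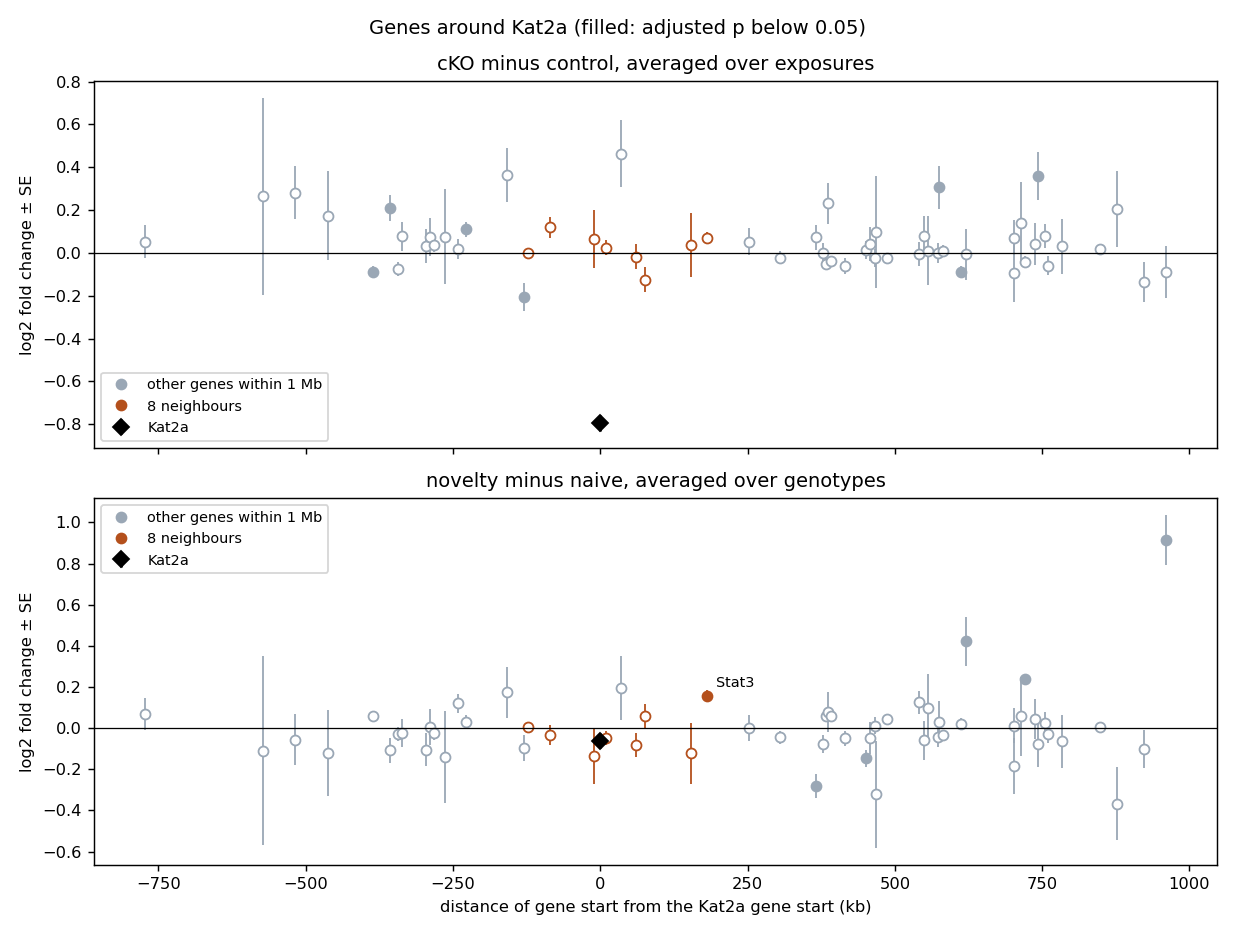
Log2 fold change with SE of the 59 genes tested within 1 Mb of Kat2a, against the distance of the gene start in kb. Filled points passed at an adjusted p below 0.05; in the genotype panel no filled point belongs to the 8 neighbours, and in the novelty panel Stat3 does.

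The genes that passed for genotype lie outside the group of 8, and not all of them are named here. Hap1 also passed in the genotype average, at 0.21 (SE 0.06, edgeR adjusted p = 0.0260). Hap1, which encodes the huntingtin-associated protein, begins at −357.4 kb relative to Kat2a and was 0.31 higher (SE 0.07, edgeR adjusted p = 0.0167) in cKO than in control mice after novelty, at 207.3 ± 17.5 (SD, n = 7) against 168.2 ± 15.1 CPM (n = 5). In the genotype average Acly, the ATP citrate lyase that makes acetyl-CoA, was 0.11 higher (SE 0.03) and the interferon-inducible gene Ifi35 0.36 higher (SE 0.11). The translation initiation factor gene Eif1 and the proteasome activator gene Psme3 were both 0.09 lower (SE 0.03). The edgeR adjusted p-values of Acly, Ifi35, Eif1 and Psme3 lay between 0.0263 and 0.0364.

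Within the stretch itself, 2 genes that are not among the 8 had larger estimates than any of the 8 in the genotype average. The potassium channel gene Kcnh4, between Rab5c and Ghdc, ranged from 2.01 to 3.37 CPM in control naive and from 2.74 to 5.07 in cKO naive libraries. After novelty it ranged from 1.63 to 4.36 in control and from 3.02 to 5.92 in cKO libraries. Its genotype average was 0.46 (SE 0.16, edgeR adjusted p = 0.0521) and did not pass. Cnp, the myelin enzyme gene whose 3′ end meets that of Dnajc7, fell by 0.21 on the log2 scale in the genotype average (SE 0.06, edgeR adjusted p = 0.0373). Cnp is 1 of 7 oligodendrocyte markers, of which 5 fell and 0 rose in that average, where 6.32% of all tested genes fell. Their summed level ran from 4852 to 5114 CPM in control naive, 4503 to 5478 in control novelty, 4035 to 5155 in cKO naive and 3095 to 5969 in cKO novelty libraries, none was at 0, and their part in the change of Cnp was not tested. The other 5 genes of the stretch, Zfp385c, Dhx58os, Hspb9, Hcrt and Gm24358, had between 0 and 65 reads in all libraries together and were not tested.

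For novelty, the genes nearby that passed were Rundc1, Arl4d, Naglu, Tubg2 and Aoc2 besides Stat3. Arl4d, which encodes a small GTPase of the ARF family and begins 960.8 kb to the right, rose by 1.08 (SE 0.14, edgeR adjusted p = 0.000789) in control mice, from 5.84 ± 0.66 (SD, n = 6) to 12.4 ± 2.93 CPM (n = 5). In cKO mice it rose by 0.75 (SE 0.18, edgeR adjusted p = 0.0385). Rundc1 rose by 0.26 (SE 0.04) in control and 0.21 (SE 0.04) in cKO mice. Naglu, a lysosomal enzyme gene, fell by 0.35 on the log2 scale in cKO mice (SE 0.08, edgeR adjusted p = 0.0343). In the novelty average Tubg2, a gamma-tubulin gene, was at −0.15 (SE 0.04) and Aoc2, an amine oxidase gene, at 0.42 (SE 0.12).

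The pathways of the neighbours were followed in 7 lists of genes, whose counts stand beside the shares of all 16744 genes tested. For the genotype average 5.72% of all genes were higher and 6.32% lower, and for the novelty average 4.43% rose and 2.13% fell. Among ligands, receptors and kinases of JAK-STAT signalling, 27 of 32 were tested in the fit over all libraries. In the genotype average 5 of 27 were higher in cKO mice (5.72% of all genes) and 0 lower, the receptor genes Epor, Il11ra1 and Il6ra and the kinase gene Tyk2 among them, with a list median of 0.05 beside 0.01 over all genes. Epor, the erythropoietin receptor, was at 4.57 ± 0.57 (SD, n = 6) in control naive and 7.44 ± 0.74 CPM (n = 6) in cKO naive libraries, 0.72 higher (SE 0.10, edgeR adjusted p = 0.00488), and 0.61 higher (SE 0.11, adjusted p = 0.00376) after novelty. In the novelty average 2 of 27 rose (4.43% of all genes), Il6ra and Jak2, the kinase below growth hormone and erythropoietin receptors, which went up by 0.12 (SE 0.03, edgeR adjusted p = 0.0197). In that average the list median was 0.00 beside −0.01 over all genes.

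Of 18 tested inhibitors of STAT signalling, 1 was higher for genotype (5.72% of all genes), the inhibitor gene Pias3, at 0.20 (SE 0.04, edgeR adjusted p = 0.00147). For novelty 2 rose (4.43% of all genes) and 1 fell (2.13%). The tyrosine phosphatase gene Ptpn1 rose from 49.97 ± 5.63 (SD, n = 6) to 64.0 ± 3.30 CPM (n = 5) in control mice and from 52.2 ± 4.11 (n = 6) to 64.1 ± 5.53 (n = 7) in cKO mice. Its novelty average was 0.32 (SE 0.05, edgeR adjusted p = 4.8e-05), while the phosphatase gene Ptpn6 fell by 0.39 on the log2 scale (SE 0.08, edgeR adjusted p = 0.00212). Of 18 tested STAT target genes, 4 rose in the novelty average (4.43% of all genes) and 0 fell, with a list median of 0.10 beside −0.01 over all genes. Mcl1, an anti-apoptotic factor gene, was at 0.30 (SE 0.04), the repressor gene Bcl6 at 0.21 (SE 0.04) and the immediate early gene Junb at 1.32 (SE 0.26). For genotype 2 of the 18 fell (6.32% of all genes), Bcl6 by 0.31 on the log2 scale (SE 0.04, edgeR adjusted p = 1.0e-05) and Myc. Many of these targets also answer to other factors.

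The lists around the other neighbours gave these counts, to be read against 12% of all genes called for genotype, 5.72% higher and 6.32% lower, and against 4.43% that rose for novelty. Of 25 tested genes of the RIG-I-like receptor pathway of Dhx58, 3 were higher for genotype and 0 lower, Irf1 at 0.38 (SE 0.10), Irf3 at 0.26 (SE 0.07) and the adaptor gene Traf3 at 0.15 (SE 0.04), and for novelty 1 rose. Of 34 Rab5 and early endosome genes, 2 were higher and 4 lower for genotype, with the endosomal tethering gene Vps8 at 0.17 (SE 0.03) and the GDP dissociation inhibitor gene Gdi2 at −0.12 (SE 0.03), and for novelty 2 rose, Rin2 at 0.24 (SE 0.04) among them. Of 33 chaperone and cochaperone genes, the group of Dnajc7, 8 rose for novelty and 0 fell. The J-domain genes Dnajb1 and Dnajb5 rose by 0.58 (SE 0.04) and 0.57 (SE 0.04) and the cochaperone gene Bag3 by 0.52 (SE 0.06), whereas Dnajc7 was at 0.01 (SE 0.02, edgeR adjusted p = 0.957). For genotype 1 of the 33 was higher and 5 lower. Of 21 NF-kappa-B genes, the group of Nkiras2, 2 rose for novelty, the inhibitor genes Nfkbia at 0.41 (SE 0.07) and Tnfaip3 at 0.28 (SE 0.08), and for genotype Relb was 0.23 higher (SE 0.06).

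Over the 24 libraries, the genes whose log2 CPM followed that of each neighbour most closely were sought among 12242 or 12243 genes with at least 50 reads on average. For Stat3 they were BC068281 (Pearson r = 0.888), Phrf1 (0.841) and Lrch3 (0.827). For Stat5b they were Pamr1 (0.906), Rnf144b (0.894) and Hivep1 (0.888), and for Rab5c Rplp2 (0.901), H1fx (0.888) and Znhit2 (0.878). Ghdc was followed by Ddx39b (0.804), Nkiras2 by Axl (0.747), Stat5a by Mcm7 (0.738), Dnajc7 by Fam96a (0.663) and Dhx58 by Haus1 (0.634). None of the 24 genes named by this rule lies on chromosome 11, and none is another neighbour of Kat2a. Dhx58 and Stat5a have fewer than 50 reads on average, so the rule could not name them. The libraries share preparation and depth across all genes, and for Rab5c 5% of all genes exceeded an r of 0.632 against 0.287 for Dhx58, so the values are a description with no test.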

How the data were processed

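Members and gene lists were chosen with earlier results of these data known. The authors deposited raw, unnormalized read counts per gene for each of 24 libraries. Their processing named STAR 2.3.0, HTSeq, DESeq2 and GRCm38.p2, per the submitters' processing notes. The annotation release and strand setting of the counting were not stated. Entries that name no gene stayed out of library sizes and tests: 7.58 to 10.36% of a library overlapped no gene, 1.06 to 1.18% was ambiguous and 14.82 to 17.97% aligned to several places. The authors also deposited 4 pairwise tables which, per the file headers, hold a base mean (a normalised signal), a log2 fold change with its error, and p-values. These tables gave symbols and positions.

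Counts were tested by the quasi-likelihood method of edgeR 4.0.16, run in R 4.3.3 (glmQLFit with robust = TRUE, then glmQLFTest, TMM, filterByExpr at a minimum count of 10, Benjamini-Hochberg over all genes tested, threshold 0.05), which was checked on simulated counts. Each pairwise comparison used its own 2 groups. A fit over 24 libraries gave the interaction and the averages. The SE is the absolute log2 fold change divided by the square root of F, and 95% intervals use the fit's degrees of freedom. Exact two-sided permutation tests compared mean CPM over all ways to divide the libraries, without adjustment. Exon lengths came from GENCODE M21, of the same build, as the union of exons. Promoter windows came from RefSeq GRCm38.p6.

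Named genes were the 8 neighbours and Kat2a, the other genes lying between them, up to 10 genes within 1 Mb that passed in any fit (smallest p first), up to 3 genes per list among those that passed (1 of these is not reported here), and the 3 genes with the highest Pearson r to each neighbour, at 50 or more mean reads. Alternatives were upper-quartile scaling, DESeq2 1.42.0 size factors, the DESeq2 Wald test, limma-voom (limma 3.58.1), no filter, a replicate block, a term for library number, 1 fit over 24 libraries, leaving out each library, other windows and unscaled CPM. A sign change counts as a reversal only where a call was made.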

Additional observations from a re-analysis of the deposited data

Results flagged for a closer look

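Gaps within groups were checked in 36 sets of values, the 8 neighbours and Kat2a in each of 4 groups, with Dixon's ratio, which is the gap of the end value to its nearest neighbour divided by the whole range. Chance alone marks about 1 in 20 such sets, and 2 of the 36 were marked. Dnajc7 in cKO novelty library 7 was at 149.8 CPM, below the next value of 167.1, with the highest library of the group at 178.2, a ratio of 0.609. Stat5a in cKO novelty library 3 was at 1.65 CPM, above the next value of 1.16, with the lowest library at 0.790, a ratio of 0.574. The limit for 7 values is 0.568.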

How the results depend on the processing

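The counts of all genes moved with the method. For genotype in naive mice the edgeR count of 131 became 465 with the DESeq2 Wald test, 322 in 1 fit over 24 libraries and 70 with the replicate block, and 40 to 166 when 1 library was left out, the lowest without control naive 6. For genotype after novelty 733 became 1168 with DESeq2 and 398 with the block, and 324 to 1025 without 1 library, the lowest without control novelty 2. For novelty in control 196 became 377 with DESeq2, 305 in 1 fit and 97 with the block, and 113 to 255 without 1 library, the lowest without control novelty 2. For novelty in cKO 393 became 653 with DESeq2 and 207 with the block, and 238 to 452 without 1 library, the lowest without cKO naive 2. The averages gave 1480 to 2210 (genotype, 2017) and 850 to 1262 (novelty, 1097) without 1 library, and the interaction gave 0 throughout. With upper-quartile scaling the share of calls that were higher went from 79.9 to 67.0% for novelty in cKO, from 67.5 to 53.9% for its average and from 47.5 to 58.5% for the genotype average. Replicate numbers did not pair the samples: same-number correlations of deviations ran from −0.13 to 0.28, and 0 to 2 samples per comparison correlated best with their own number.

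Among the neighbours, no call reversed and none was gained in the edgeR, DESeq2 and limma-voom fits. The number called for novelty in cKO went from 1 to 0 with upper-quartile scaling, with no filter on low counts and with the replicate block (Stat3 0.17, adjusted p = 0.0762), and ran from 0 to 1 without 1 library; Stat3 kept its direction in all of these, and with the DESeq2 Wald test its adjusted p was 0.0068. The cause was not tested. In the exact tests 5 of 32 unadjusted p-values were below 0.05, and 8 with CPM not scaled by TMM, where Stat3 gained both genotype comparisons and Nkiras2 the one after novelty. Without TMM the mean of Stat3 in cKO libraries was 107.1% of control in naive mice and 109.1% after novelty. With TMM these were 104.4% and 105.6%. Libraries numbered 1 to 3, or 4 and above, allow few splits and say nothing of a call. Within 250 kb and 5 Mb, in place of 1 Mb, the genes that passed were 0 and 4 (0 at 1 Mb) for genotype in naive, 0 and 8 (1) after novelty, 0 and 4 (2) for novelty in control, 1 and 6 (4) in cKO, 2 and 28 (7) for the genotype average and 1 and 20 (6) for the novelty average. Depth limits Dhx58 and Stat5a, at 20.7 and 24.8 reads per library on average.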

Other observations

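The levels of the 8 neighbours were also set against 10 cell type marker lists over the 24 libraries, as the mean log2(CPM + 0.5) of each list. Of these 80 correlations none had a Benjamini-Hochberg adjusted permutation p below 0.05. The one with the smallest p was Nkiras2 with the 7 interneuron markers, at Pearson r = −0.55 (permutation p = 0.00596, adjusted p = 0.268) and Spearman rho = −0.46 (permutation p = 0.0243, adjusted p = 0.454), and r = −0.36 without the 2 libraries farthest from the median. With group means removed it was −0.33. Within libraries numbered 1 to 3 it was −0.46 (n = 12) and within those numbered 4 and above −0.68 (n = 12). Stat5b had unadjusted permutation p-values below 0.05 with microglia (r = −0.53), CA3 and CA2 (−0.52), oligodendrocytes (0.48) and dentate granule neurons (−0.43). Their adjusted p-values ran from 0.268 to 0.407. With group means removed, r was −0.47, −0.49, 0.40 and −0.73 in that order. Rab5c with endothelium (r = −0.44) and astrocytes (−0.41) and Stat3 with oligodendrocytes (−0.43) also had unadjusted p-values below 0.05 by this permutation test. With group means removed, r was −0.53, −0.52 and 0.007 in that order. For Rab5c, r within libraries numbered 4 and above was 0.06 with endothelium and −0.008 with astrocytes. Within those numbered 1 to 3 it was −0.69 and −0.31.

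The 7 interneuron markers summed to 951 to 1114 CPM in control naive, 965 to 1110 in control novelty, 857 to 996 in cKO naive and 884 to 1054 in cKO novelty libraries, and 3 of 7 fell in the genotype average, where 6.32% of all tested genes fell. The 5 choroid plexus markers reached 110.4 CPM in 1 control naive library, where the others of all groups lay at 42.5 CPM or below.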
